A study of Mus musculus with 12 samples.

Results

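Nonsense-mediated decay transcripts are RNA isoforms whose annotated reading frame ends early, at a stop codon that lies well before the last exon-exon junction. The members described here are the Ensembl transcripts with the GENCODE type nonsense_mediated_decay on build GRCm38 (mm10) that have a row in all 12 deposited tables. There were 863 of them among 24723 annotated transcripts (3.49%), from 756 genes, called host genes here. Of these genes 85 carried more than 1 member, and Rabggtb, Rbm39 and Tmem234 carried 5 each, so that members of 1 gene share its RNA and are not independent. The rule set no threshold on level, but whether a row is listed depends on level, as described below.

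The RNA came from whole hearts of wild-type C57BL/6 mice, with 4 samples in each of 3 groups, and was depleted of ribosomal RNA before sequencing. The Control group received saline for 3 days. The LPS group received 10 mg/kg of lipopolysaccharide, the endotoxin of Gram-negative bacteria, over 3 days. The LPS+XJDHT group received the same dose of LPS and 50 mg/kg per day of XJDHT, the herbal formula Xijiao Dihuang decoction, so that LPS is shared by both treated groups and no group received XJDHT alone. The labels used here name no age or sex. Each level is an FPKM value of the authors, that is fragments per transcript length and library size, so levels can be compared between transcripts. Depth was 73.8 to 77.9 M fragments per library, of which 253 to 535 k fell on members (M and k for 1e6 and 1e3). The 8 cardiomyocyte markers were listed, with sums of 16812 to 18768 FPKM in Control, 8095 to 9857 in LPS and 6617 to 10150 in LPS+XJDHT. The 5 listed neutrophil markers (Ly6g was not listed) summed to 1.15 to 2.68, 76.5 to 114 and 72.2 to 148 FPKM, and the 4 T cell and 4 B cell markers were not listed. The 5 fibroblast markers summed to 350.4 to 426, 691 to 824 and 563 to 903 FPKM, and the 6 macrophage markers to 201 to 324, 120.2 to 378 and 144 to 283 FPKM. The 5 erythroid markers summed to 1275 to 1379, 238 to 803 and 125 to 253 FPKM, the 5 testis markers to 4.35 to 7.35, 2.79 to 13.2 and 0 to 0.0873 FPKM, and the 5 small intestine markers to 3.11 to 10.5, 11.4 to 16.6 and 2.95 to 5.57 FPKM, each in the order Control, LPS and LPS+XJDHT. In LPS+XJDHT replicate 2 the sum of 4 Y-linked genes was 0.205 FPKM, against 20.4 to 61.9 FPKM in the other 11 libraries. The part of these differences in the results below was not tested, and in whole-heart RNA fewer cells of a type and less RNA per cell cannot be told apart.

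In nonsense-mediated decay, a ribosome that ends translation upstream of an exon junction complex meets the helicase UPF1 with UPF2 and UPF3, SMG1 phosphorylates UPF1, and SMG5 and SMG6 take part in the steps that cleave and degrade the RNA. Cells use the same route to tune normal genes: many splicing factors of the SR and hnRNP families include a poison exon, or drop an exon, and so divert part of their own RNA into isoforms that are degraded. A member therefore tends to be measured at a level that reflects both how much of it is spliced and how fast it is lost, and RNA levels at 1 time hold no separate value for either.

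Where the early stop lies was read from the annotated transcripts. In 858 of 863 members the stop codon lay at least 50 bases before the last exon junction, the distance at which the pathway is usually taken to act, with a median of 386 bases and a median of 3 junctions after the stop. The 5 others were Xaf1-201, Arhgap23-204, Ubl5-205, Dtnbp1-207 and Tomm22-203. In 423 members the stop lay inside sequence that a coding transcript of the gene translates, where a shifted reading frame meets it. In 164 members it lay in a whole exon that no coding transcript of the gene holds, and these exons were short, with a median of 110 bases and 142 of them at most 200 bases. For 163 members it lay in other sequence outside the coding transcripts, such as a retained intron part or a longer exon, and 83 members ended at the very stop codon of a coding transcript, with exons joined downstream of it. The stop was TGA in 480, TAA in 197 and TAG in 186 members. For 163 members the annotated reading frame has no start, so its first codons are not known.

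Extra exons with an in-frame stop are shown for 8 members whose levels are described below, 7 that passed the test of LPS against Control and Camk2d-213, of a heart muscle gene, that did not. Each sequence is read from the GENCODE transcripts, runs 5′ to 3′ from the first base of the extra exon to the end of the stop codon, and has the stop codon in capitals. The first bases can belong to a codon begun in the exon before.
Il4ra-205, exon chr7:125571934-125572047, plus strand, bases chr7:125571934-125571953: caagtaatgaaaatctgTGA
Pnpla2-204, exon chr7:141456568-141456649, plus strand, bases chr7:141456568-141456593: gtgatcttgagcagctagaacaaTGA
Prkch-204, exon chr12:73594068-73594164, plus strand, bases chr12:73594068-73594076: gtctcaTAG
Srsf11-206, exon chr3:158024123-158024231, minus strand, bases chr3:158024209-158024231: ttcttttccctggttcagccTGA
Rbm39-218, exon chr2:156178880-156178952, minus strand, bases chr2:156178881-156178952: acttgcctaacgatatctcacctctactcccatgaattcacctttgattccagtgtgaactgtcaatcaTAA
Chd2-212, exon chr7:73454691-73454803, minus strand, bases chr7:73454747-73454803: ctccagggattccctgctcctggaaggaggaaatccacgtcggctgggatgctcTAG
Myoz2-203, exon chr3:123033192-123033363, minus strand, bases chr3:123033326-123033363: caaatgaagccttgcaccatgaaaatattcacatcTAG
Camk2d-213, exon chr3:126779901-126779999, plus strand, bases chr3:126779901-126779915: gttttcgcctgcTGA
All coordinates are on GRCm38. In Il4ra-205 the stop comes 20 bases into an exon of 114 bases, with 4 junctions behind it. The exon of Prkch-204 carries its stop within the first 9 bases, followed by 13 junctions. Rbm39-218 reads 72 of the 73 bases of its exon before the stop ends.

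Members were low on the whole. Their mean level over the 12 libraries had a median of 1.10 FPKM and quartiles of 0.641 and 2.24 FPKM, against a median of 2.51 FPKM over the protein_coding rows and 0.876 FPKM over the retained_intron rows. Only 83 members reached a mean of 5 FPKM and 31 reached 10 FPKM, and the highest 8 held 27.8% of the summed level. Expressed as a share of the summed FPKM of the protein_coding transcripts of the same gene, the median member stood at 12.3% (quartiles 3.82% and 40.5%, 797 members with such a row listed). The share was under 10% for 356 members and over 100% for 85, and 139 members were the highest listed row of their gene. For 66 members no coding row of the gene was listed. Transcripts that the authors assembled themselves carry no Ensembl identifier and are not in these sums, so a share can exceed the true one.

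**Figure D1:**
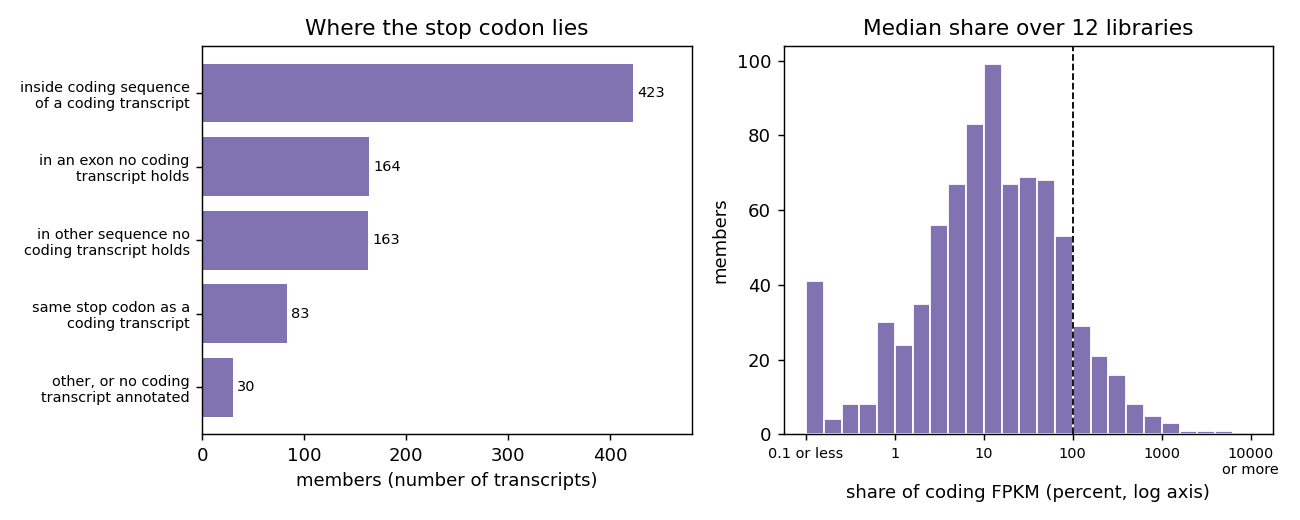
Left, number of the 863 members by where their stop codon lies relative to the protein_coding transcripts of the same gene. Right, histogram of the median share over 12 libraries for the 797 members with a listed coding transcript, on a log axis in percent, with 100% dashed and values at or below 0.1% gathered in the first bar; the centre of the distribution lies near 12.3% and 85 members lie beyond the dashed line.

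The highest members came from abundant heart genes. Lpl-203 is an isoform of lipoprotein lipase, the enzyme that frees fatty acids from circulating triglyceride, and lies at chr8:68880555-68907448. It stood at 0.0209, 2.45, 722 and 49.2 FPKM in the 4 Control libraries, at 658, 608, 6.49 and 719.9 FPKM in LPS and at 692, 702, 39.2 and 668 FPKM in LPS+XJDHT. The coding transcripts of Lpl stood at 797, 735, 95.7 and 871 FPKM, at 87.7, 71.7, 1022 and 87.0 FPKM and at 88.4, 74.3, 821 and 88.4 FPKM in the same libraries. In every library with the member above 600 FPKM the coding sum was below 100 FPKM, and the 3 groups overlap for both. Col4a1-208, from the gene of the basement membrane collagen alpha chain, stood at 0, 0, 0.00198 and 0.00399 FPKM in Control, at 0.00205, 192, 0.00199 and 144 FPKM in LPS and at 0, 154, 166 and 162 FPKM in LPS+XJDHT. It was thus near 0 or above 140 FPKM, and in both treated groups the coding sum of Col4a1 was lower in the libraries where the member was high (312, 72.4, 184 and 52.5 FPKM in LPS).

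**Figure D2:**
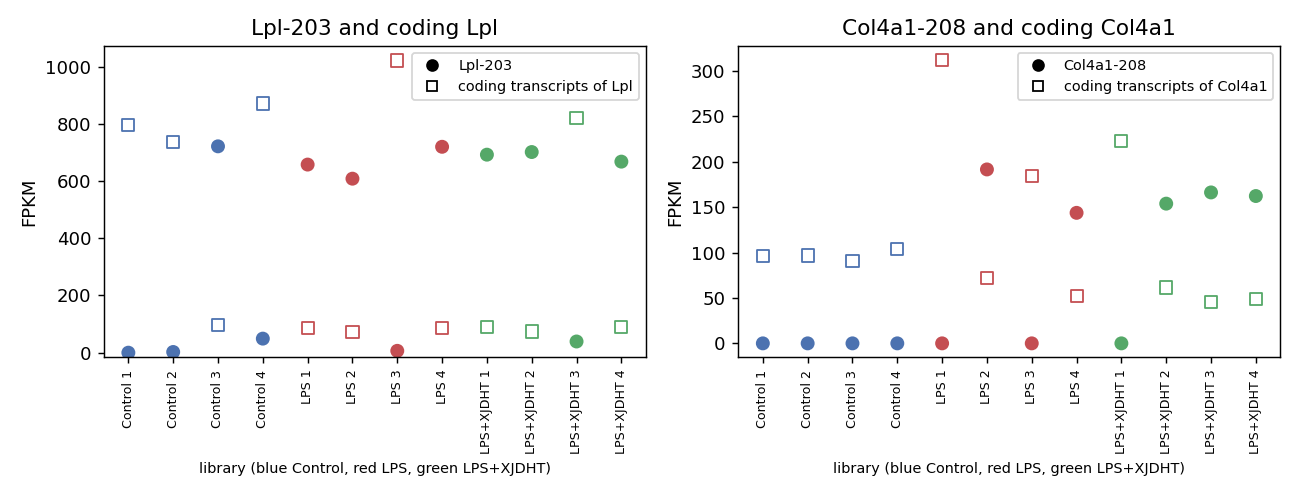
Level in FPKM of Lpl-203 (left, filled circles) and Col4a1-208 (right, filled circles) with the summed coding transcripts of the same gene (open squares) in each of the 12 libraries, blue for Control, red for LPS and green for LPS+XJDHT. In each library 1 of the pair is high and the other low for Lpl, with Control replicate 3, at 722 FPKM of Lpl-203, unlike the other Control libraries.

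Such jumps between libraries of 1 group were common among the members. A member was counted as switching where the lowest library of a group was at or below 0.05 FPKM and the highest at or above 2 FPKM. This held for 269 of 863 members (31.2%), against 12.7% of the protein_coding rows and 4.75% of the retained_intron rows. The count was 127 members in Control, 166 in LPS and 126 in LPS+XJDHT. By place of the stop, it was 34.8% of the members with the stop inside coding sequence and 32.3% of those with an extra exon. It was 26.4% of those with the stop in other outside sequence and 24.1% of those that end at the stop of a coding transcript. Within-group spread of this kind enters every test below.

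The remaining members of the highest 8 were less extreme. Chpt1-207, from the cholinephosphotransferase gene of phospholipid synthesis, ranged from 28.0 to 106 FPKM over the 12 libraries, and its coding transcripts from 13.5 to 36.9 FPKM. Tnnc1-203, of cardiac troponin C, stood at 89.7, 14.9, 17.1 and 71.2 FPKM in Control and 48.8, 86.6, 30.5 and 10.6 FPKM in LPS beside coding sums of 940.0 to 1635 FPKM over the 12 libraries. Rpsa-206, of the small ribosomal subunit, stood at 52.3, 4.76, 37.8 and 0.0118 FPKM in Control and 1.95, 81.7, 0.0117 and 73.1 FPKM in LPS. For both, the Control and LPS libraries overlapped. Glo1-201 held nearly all of the listed glyoxalase 1 RNA, at 37.5 ± 2.78 FPKM in Control against a coding sum of 0.267 to 2.10 FPKM over all libraries, and it fell after LPS to 30.9 ± 2.03 FPKM (SD, n = 4; log2 change -0.27 ± 0.08 (SE), limma adjusted p = 0.0405). Glo1-201 no longer passed without Control replicate 1, 3 or 4, LPS replicate 1, 2 or 3 or LPS+XJDHT replicate 1, 3 or 4 (limma adjusted p up to 0.113).

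Endotoxin's effect on these isoforms was read from LPS against Control. On the log2(FPKM + 0.5) scale, limma tested the 796 members that reached 0.5 FPKM in 4 or more libraries, and 100 rose and 31 fell at an adjusted p below 0.05. That is 16.5% of the members, and 21.5% of all 23763 transcripts tested passed in the same fit. In the upward direction the members' 12.6% stood beside 15.2%, and in the downward direction 3.89% beside 6.25%. The median change was 0.40 over the members and 0.19 over all transcripts. Scaling the libraries by median ratios moved the median of all transcripts by more than 0.1, to 0.06, and that of the members to 0.29, and then 80 members rose and 42 fell.

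Which rows the tables list bears on these counts. Of the members, 0 had group means under 0.49 FPKM in both Control and LPS, 0 in both LPS and LPS+XJDHT, and 94 in both Control and LPS+XJDHT. By group mean, 306 members lay below 0.5 FPKM in Control and at or above it in LPS, and 48 the other way round. Among the 958 transcripts of this type in the Control and LPS tables alone those numbers were 306 and 143. In a fit of those rows, 661 members were tested, of which 67 rose and 47 fell, beside 2858 and 1589 of all 22202 transcripts, and the median change was 0.24 over these members and 0.11 over all transcripts.

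The median share of coding over the 702 members tested for it was 6.998% to 10.4% in the Control libraries, 10.8% to 17.1% in LPS and 12.7% to 15.1% in LPS+XJDHT. With rows chosen evenly, by a mean of at least 0.5 FPKM over the 8 Control and LPS libraries, it was 9.02% to 11.6% in Control and 10.8% to 17.0% in LPS over 688 transcripts, and the groups overlapped. Summed over members, the level was 8.87% to 12.4% of the coding sum of the host genes in Control, 9.17% to 17.2% in LPS and 11.7% to 15.4% in LPS+XJDHT. Without Lpl-203, Col4a1-208 and their genes these ranges were 8.73% to 10.8%, 9.69% to 13.0% and 10.7% to 11.9%.

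**Figure D3:**
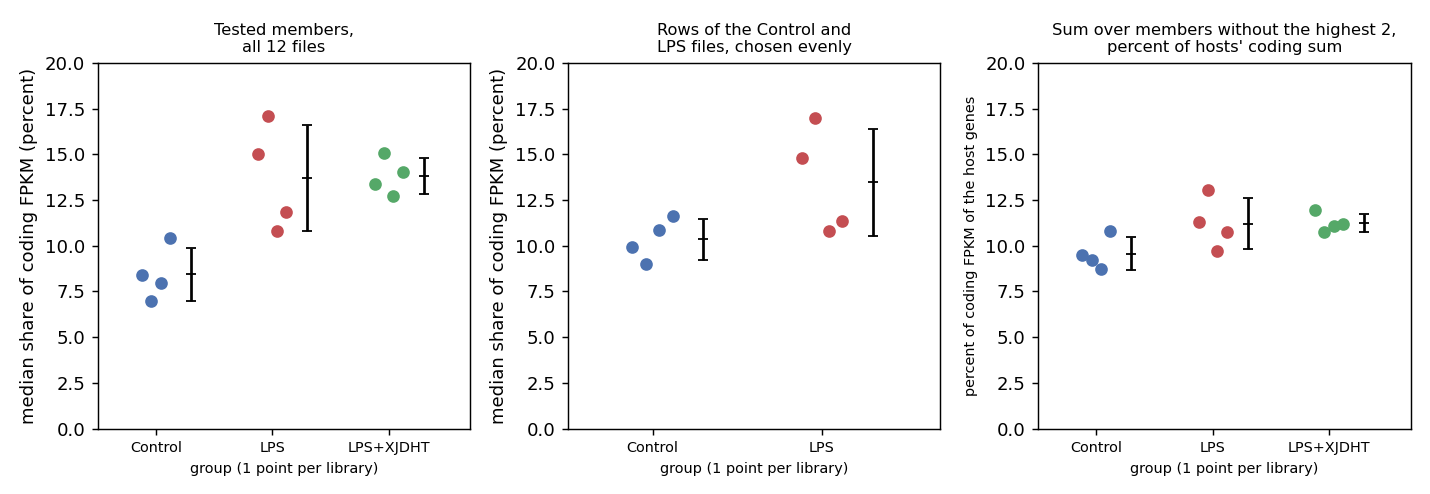
Median share of coding FPKM in percent over the 702 tested members (left) and over 688 transcripts chosen evenly from the Control and LPS tables (middle), and the summed level of 861 members, without Lpl-203 and Col4a1-208, in percent of the coding level of their host genes (right). Points are libraries, bars give the mean and SD of 4; Control and LPS do not overlap on the left (6.998% to 10.4% and 10.8% to 17.1%) and overlap in the middle and on the right.

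Per transcript, the share of coding changed in few members. Of 702 tested, 20 rose and 19 fell (5.56%), and 4.98% of all 13398 transcripts tested passed (2.4% higher and 2.58% lower); with a pseudocount of 0.1 FPKM 27 rose and 13 fell. Of the 20 members with a higher share, the coding sum of the host fell in 7, rose in 3 and did not pass in 10. Of the 19 with a lower share, it rose in 15 and did not pass in 4. The coding sum is the denominator of the share, so a lower share tends to go with a higher host by construction. Cfb-203 and Sh3bp5-203, called here as lower, are taken up below. Among the 100 members that rose at transcript level, 91 had a tested host, which also rose in 30, fell in 4 and did not pass in 57. For the 31 that fell, 28 hosts were tested, of which 6 fell, 4 rose and 18 did not pass. In all, 139 host genes rose and 62 fell of 665 tested by their coding sum (30.2%), and 37% of all 10189 genes tested passed; with median ratio scaling these counts were 101 and 95 of 671. Leaving out Control replicate 1, 2 or 3 gave 22, 23 and 23 shares past the threshold, and leaving out LPS replicate 1, 2 or 4 gave 23, 17 and 22.

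**Figure D4:**
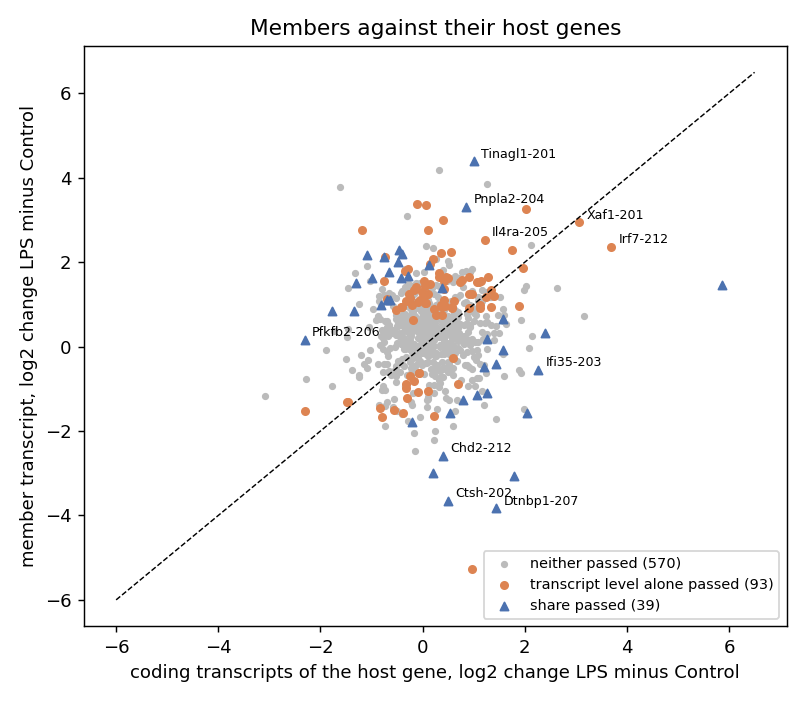
Log2 change from Control to LPS of the 702 members with a tested share (vertical axis) against that of the coding transcripts of their host gene (horizontal axis), on the log2(FPKM + 0.5) scale; the dashed line marks equal change. Grey points passed neither test (570), orange points the transcript test alone (93) and blue triangles the share test (39); Tinagl1-201 and Pnpla2-204 lie above the line and Ifi35-203 and Ctsh-202 below it.

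The largest increases included isoforms that were near 0 in Control. No member had means under 0.49 FPKM in both Control and LPS. A row near 0 in Control was thus listed only with a higher level in LPS. This goes for each such member below, and its p-value does not allow for that choice. Tinagl1-201, of an extracellular matrix protein of the vessel wall, lies at chr4:130164454-130174802. It stood at 0, 0, 1.52 and 0 FPKM in Control, 22.9, 19.9, 7.15 and 13.0 FPKM in LPS and 24.9, 10.0, 8.67 and 15.9 FPKM in LPS+XJDHT. Every LPS library lay above every Control library (log2 change 4.39 ± 0.52 (SE), limma adjusted p = 2.03e-04), and so did the share of coding (3.39 ± 0.62 (SE), limma adjusted p = 0.0123), and the coding transcripts rose from 40.1, 41.5, 36.6 and 50.4 to 90.3, 80.2, 100.2 and 69.5 FPKM.

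Pnpla2-204 belongs to adipose triglyceride lipase, which starts the breakdown of stored fat, and holds the extra exon shown above. The isoform was at 0, 0, 0.440 and 0 FPKM in Control, 5.25, 11.3, 2.78 and 4.74 FPKM in LPS and 8.87, 5.75, 2.70 and 6.27 FPKM in LPS+XJDHT, with no overlap between Control and LPS (log2 change 3.32 ± 0.42 (SE), limma adjusted p = 3.03e-04). Its share of coding rose as well, from 0, 0, 0.527 and 0% in Control to 3.32, 8.65, 1.87 and 2.54% in LPS (log2 change 2.46 ± 0.41 (SE), limma adjusted p = 0.00824).

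Il4ra-205, of the alpha chain of the interleukin-4 receptor, is 1 of the few abundant members with an extra exon. In the mouse, an isoform with such an exon encodes a secreted receptor that lacks the membrane anchor. It stood at 2.31, 5.86, 4.87 and 5.61 FPKM in Control, 30.1, 30.6, 23.1 and 29.0 FPKM in LPS and 29.7, 29.5, 31.2 and 35.7 FPKM in LPS+XJDHT (LPS against Control, log2 change 2.54 ± 0.23 (SE), limma adjusted p = 3.14e-05). The lowest LPS library was well above the highest Control library. In each group it exceeded the listed coding transcripts of Il4ra, which stood at 1.90, 1.66, 2.32 and 1.22 FPKM in Control and 7.05, 4.13, 5.05 and 3.32 FPKM in LPS and rose too (1.22 ± 0.25 (SE), limma adjusted p = 0.00318). The difference in its share, 1.32 ± 0.43 (SE), limma adjusted p = 0.111, did not pass.

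The lists of genes below are to be read beside all features in the same comparison, of which 15.2% of transcripts rose and 6.25% fell, and, by coding sum, 24.8% of 10189 genes rose and 12.2% fell. Immune and interferon genes carried 9 tested members, of which 3 rose (Il4ra-205, Irf7-212 and Cfb-203) and 0 fell, and of 8 shares 0 rose and 1, that of Cfb-203, passed as lower. Their median change was 1.18, and 50 of the 71 tested genes of that list rose by their coding sum and 0 fell; this list, like the others below, was written with results of these data known. Irf7-212, of the interferon regulatory factor that amplifies type I interferon, went from 0.531, 0, 0.610 and 0 FPKM to 4.10, 3.97, 2.84 and 2.46 FPKM (2.37 ± 0.31 (SE), limma adjusted p = 4.08e-04), with no overlap. The rise of Cfb-203 was lost in several fits, as given below.

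Members of further interferon-induced genes lie outside that list. Xaf1-201, of an interferon-induced partner of the apoptosis inhibitor XIAP, stood at 0.383, 1.12, 1.15 and 0.0312 FPKM in Control and 11.2, 11.4, 4.04 and 6.57 FPKM in LPS (2.95 ± 0.40 (SE), limma adjusted p = 4.94e-04). Its coding transcripts rose too, 3.06 ± 0.20 (SE), and the difference in its share was -0.11 ± 0.43 (SE), limma adjusted p = 0.919. Ifi35-203, of an interferon-induced protein, had a lower share after LPS. Its own level was 1.72, 1.16, 1.31 and 2.61 FPKM in Control and 0.832, 1.51, 1.47 and 0.371 FPKM in LPS, which overlap. The coding transcripts rose from 5.12, 4.04, 2.58 and 3.37 to 20.9, 19.1, 18.05 and 20.4 FPKM, and the share fell by 2.81 on the log2 scale (limma adjusted p = 0.00231). Oas1g-203, of an oligoadenylate synthetase, was at 0, 0.0805, 0 and 0.0869 FPKM in Control, 0.811, 1.21, 1.22 and 1.21 FPKM in LPS and 0.255, 0.132, 0.0711 and 0.492 FPKM in LPS+XJDHT (LPS against Control, 1.57 ± 0.20 (SE), limma adjusted p = 2.75e-04). It passed the filter of 0.5 FPKM through the LPS libraries alone, the group where it is high, and this p-value does not allow for that.

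Members of other genes rose without a shared list. Ctla2b-204, of a cysteine protease inhibitor, was at 0.193, 0, 0 and 0 FPKM in Control and 4.39, 4.39, 5.34 and 4.62 FPKM in LPS (3.25 ± 0.20 (SE), limma adjusted p = 2.44e-06). Clu-205, of the secreted chaperone clusterin, went from 0, 0.716, 0.461 and 0 FPKM to 2.85, 3.11, 2.31 and 4.45 FPKM (2.29 ± 0.31 (SE), limma adjusted p = 4.69e-04), beside coding sums of 236 to 268 FPKM in Control and 711 to 1061 FPKM in LPS. Prkch-204, of protein kinase C eta, rose from 0.00365, 0.00366, 0.442 and 0.263 to 10.2, 4.66, 3.94 and 1.06 FPKM (2.76 ± 0.77 (SE), limma adjusted p = 0.0263) and ranged from 0.00354 to 5.34 FPKM in LPS+XJDHT. Ncstn-204, of nicastrin, a subunit of the gamma-secretase protease, was at 0.470, 0.0309, 0.0213 and 0.0343 FPKM in Control and 2.14, 2.34, 2.58 and 2.05 FPKM in LPS, and its share of coding rose (3.25 ± 0.48 (SE), limma adjusted p = 0.00467). Nde1-205, of a regulator of the motor protein dynein, was listed at 0, 0, 0 and 0 FPKM in Control and stood at 1.76, 1.85, 2.61 and 1.62 FPKM in LPS, and its share rose too (2.75 ± 0.57 (SE), limma adjusted p = 0.0208). In all of these the lowest LPS library exceeded the highest Control library. The rule that named them asks for groups that do not overlap, at transcript level or in the share, so this is no separate support. The same holds for the other members named for the size of their change. Groups that do not overlap were found in 25.6% of all 23763 transcripts in LPS against Control. Prkch-204 no longer passed without Control replicate 1 or 2 or LPS replicate 1 or 2 (limma adjusted p up to 0.0736), or with limma-voom (adjusted p = 0.101). The share of Nde1-205 no longer passed without Control replicate 1 or 3 (limma adjusted p up to 0.0562).

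**Figure D5:**
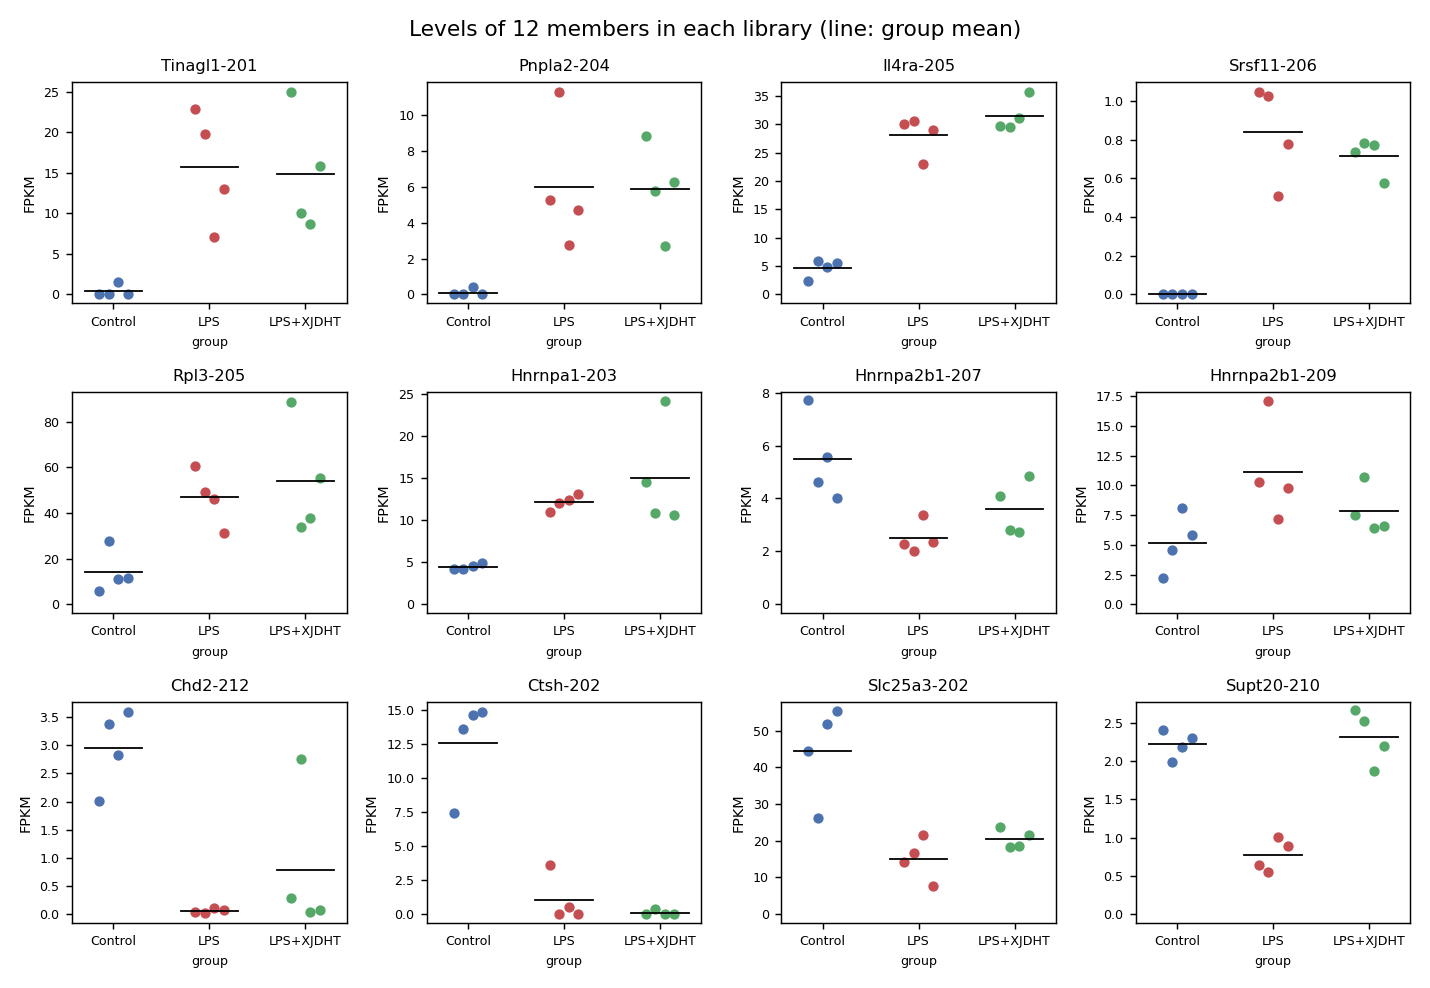
Level in FPKM of 12 members in each library, with 4 points per group (blue Control, red LPS, green LPS+XJDHT) and a line at the group mean; each panel has its own axis from 0. Il4ra-205 lay between 2.31 and 5.86 FPKM in Control and between 23.1 and 30.6 FPKM in LPS, Chd2-212 fell to at most 0.110 FPKM in LPS, and Supt20-210 was lower in LPS than in both other groups.

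Of the 31 members that fell, 9 had a higher mean in Control than the listed coding transcripts of their gene. The same count was not made over all members, and a fall from Control favours a high level there. No member had means under 0.49 FPKM in both Control and LPS, or in both LPS and LPS+XJDHT. A row near 0 in LPS was thus listed only with a higher level in Control and in LPS+XJDHT. This goes for each such member below, and its p-values do not allow for that choice. Dtnbp1-207, of the vesicle-traffic protein dysbindin, went from 4.52, 4.55, 16.3 and 12.02 FPKM in Control to 0, 0, 0 and 0.530 FPKM in LPS (-3.83 ± 0.90 (SE), limma adjusted p = 0.0113), while its coding transcripts rose from 9.43, 8.62, 10.7 and 8.33 to 30.1, 26.1, 21.2 and 26.9 FPKM. The call for Dtnbp1-207 was lost with limma-voom on recovered fragments (adjusted p = 0.0709). Ctsh-202, of the lysosomal protease cathepsin H, went from 7.40, 13.6, 14.6 and 14.8 FPKM to 3.60, 0, 0.521 and 0 FPKM (-3.65 ± 0.59 (SE), limma adjusted p = 0.00134), and its share of coding fell (-4.15 ± 0.78 (SE), limma adjusted p = 0.0135). It stayed low in LPS+XJDHT, at 0, 0.413, 0 and 0 FPKM.

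Chd2-212, of a chromatin remodeller, carries an extra exon and went from 2.01, 3.38, 2.82 and 3.59 FPKM in Control to 0.0452, 0.0173, 0.110 and 0.0791 FPKM in LPS (-2.59 ± 0.48 (SE), limma adjusted p = 0.00320). In LPS+XJDHT it stood at 0.279, 2.76, 0.0300 and 0.0680 FPKM, with replicate 2 within the Control range. The coding transcripts of Chd2 stood at 3.73, 3.20, 4.49 and 3.09 FPKM in Control and 4.64, 3.71, 7.30 and 4.56 FPKM in LPS, and the share fell by 3.00 on the log2 scale (limma adjusted p = 0.00862).

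Bmp1-205, of the proteinase that trims procollagen, went from 3.26, 3.42, 4.81 and 5.35 FPKM to 0.00611, 0.351, 0 and 0.0124 FPKM (-3.01 ± 0.72 (SE), limma adjusted p = 0.0126), and in LPS+XJDHT it ranged from 0.00312 to 8.14 FPKM. With limma-voom the call for Bmp1-205 was lost (adjusted p = 0.291). Kctd9-206 went from 7.13, 8.22, 7.18 and 6.88 FPKM to 0, 0, 5.51 and 0 FPKM (-3.07 ± 0.76 (SE), limma adjusted p = 0.0146), with LPS replicate 3 set apart from the other 3. Dlst-205, of the E2 subunit of the 2-oxoglutarate dehydrogenase complex, went from 64.0, 55.001, 50.4 and 55.3 FPKM to 0, 0, 37.6 and 0 FPKM (-5.26 ± 1.69 (SE), limma adjusted p = 0.0461), and again only replicate 3 of the 4 LPS libraries was above 0. Cenpa-202, of the centromeric histone, fell from 3.59, 3.31, 4.20 and 1.89 to 0.335, 0.531, 1.10 and 0.733 FPKM (-1.67 ± 0.33 (SE), limma adjusted p = 0.00455) without overlap. Dlst-205 no longer passed without Control replicate 1, 2, 3 or 4, LPS replicate 1, 2 or 4 or LPS+XJDHT replicate 1, 3 or 4 (limma adjusted p up to 0.112).

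Splicing regulators are the class best known for poison exons. The SR proteins and their relatives held 14 tested members, of which 2 rose and 0 fell, with a median change of 0.69; 1 of 13 shares rose. Srsf11-206 was listed at 0 FPKM in all 4 Control libraries and stood at 1.04, 1.03, 0.508 and 0.775 FPKM in LPS and 0.736, 0.781, 0.774 and 0.574 FPKM in LPS+XJDHT (LPS against Control, 1.40 ± 0.17 (SE), limma adjusted p = 2.34e-04), beside coding transcripts at 6.56 to 9.43 FPKM in Control and 8.98 to 12.7 FPKM in LPS. Its share of coding rose (1.01 ± 0.24 (SE), limma adjusted p = 0.0371). Luc7l2-204, of a U1 snRNP partner, rose from 0.0932, 0, 1.38 and 0 to 6.83, 6.60, 4.47 and 3.81 FPKM (2.99 ± 0.40 (SE), limma adjusted p = 4.38e-04). Srsf6-201 stood at 0, 1.82, 3.34 and 0 FPKM in Control and 7.32, 5.76, 4.35 and 2.49 FPKM in LPS and did not pass (2.08 ± 0.72 (SE), limma adjusted p = 0.0614).

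In the hnRNPs and other RNA-binding splicing regulators, 3 of 28 tested members rose and 1 fell, with a median change of 0.54; of 23 shares 0 rose and 2 fell. Hnrnpa1-203 went from 4.22, 4.21, 4.54 and 4.89 FPKM in Control to 10.95, 12.03, 12.5 and 13.1 FPKM in LPS (1.35 ± 0.22 (SE), limma adjusted p = 0.00147). Its share of coding differed by 0.01 ± 0.54 (SE), limma adjusted p = 0.995, as the coding transcripts rose alongside (1.34 ± 0.32 (SE)). Hnrnpa2b1 carried members that moved in opposite directions, while its coding transcripts fell (-0.32 ± 0.08 (SE), limma adjusted p = 0.0101). Hnrnpa2b1-207 fell from 7.73, 4.63, 5.58 and 4.02 to 2.27, 2.01, 3.37 and 2.35 FPKM (-0.98 ± 0.24 (SE), limma adjusted p = 0.0147), without overlap. Hnrnpa2b1-209 stood at 2.21, 4.56, 8.11 and 5.86 FPKM and 10.2, 17.1, 7.21 and 9.80 FPKM, which overlap, and rose (1.08 ± 0.35 (SE), limma adjusted p = 0.0473), a call lost with median ratio scaling. Rbm39-218, of a coactivator that also acts in splicing, rose from 0.206, 0.264, 0.109 and 0.476 to 1.28, 1.14, 0.840 and 2.02 FPKM (1.24 ± 0.35 (SE), limma adjusted p = 0.0274). Ptbp1-201, of the polypyrimidine tract binding protein, was at 0.947, 2.13, 1.83 and 2.13 FPKM in Control and 0.481, 0, 0.724 and 0 FPKM in LPS, while its coding transcripts rose from 5.05, 2.87, 2.56 and 8.49 to 21.3, 26.7, 12.5 and 19.1 FPKM and its share fell (-3.62 ± 0.84 (SE), limma adjusted p = 0.0323). The other lower share was that of Hnrnpdl-205 (-1.08 ± 0.25 (SE), limma adjusted p = 0.0295). Hnrnpa2b1-209 no longer passed without Control replicate 1, 2 or 4, LPS replicate 1, 2 or 4 or LPS+XJDHT replicate 1, 3 or 4 (limma adjusted p up to 0.121). Rbm39-218 no longer passed without Control replicate 1, 2 or 3 or LPS replicate 1 or 4 (limma adjusted p up to 0.0723). The share of Ptbp1-201 no longer passed without Control replicate 1, 2, 3 or 4 or LPS replicate 1, 2 or 4 (limma adjusted p up to 0.0858).

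Ribosomal protein genes held 14 tested members, of which 4 rose and 0 fell, with a median change of 1.37, and 0 of 14 shares passed. Their host list rose broadly, with 68 of 81 genes higher and 0 lower by coding sum, beside 24.8% and 12.2% of all genes (61 and 0 with median ratio scaling). Rpl3-205 went from 5.95, 27.9, 11.1 and 11.4 FPKM to 60.8, 49.4, 46.1 and 31.3 FPKM (1.87 ± 0.42 (SE), limma adjusted p = 0.00960), and its coding transcripts from 23.7, 39.7, 40.0 and 13.6 to 164, 88.8, 120.1 and 73.5 FPKM, so the share moved by -0.10 ± 0.46 (SE). Rpl12-201 rose by 1.56 ± 0.39 (SE), limma adjusted p = 0.0158. Rpl13a-216 rose by 1.24 ± 0.34 (SE), limma adjusted p = 0.0235. The fourth, Rps9-210, rose from 3.29, 4.60, 3.11 and 2.91 to 7.03, 6.22, 8.72 and 6.36 FPKM (0.94 ± 0.18 (SE), limma adjusted p = 0.00450). Among translation factors 1 of 6 tested members rose, Eif4a2-204 of the helicase that unwinds messenger leaders, from 3.60, 1.23, 2.62 and 3.21 to 7.41, 8.75, 9.55 and 10.6 FPKM (1.66 ± 0.33 (SE), limma adjusted p = 0.00452). Its coding transcripts were at 48.3, 50.4, 47.3 and 47.3 FPKM in Control and 50.4, 25.6, 45.7 and 42.1 FPKM in LPS, and its share rose (1.94 ± 0.38 (SE), limma adjusted p = 0.0158). Rpl13a-216 no longer passed without Control replicate 3 or LPS replicate 2 or 4 (limma adjusted p up to 0.0646).

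Of 4 tested members of contraction and calcium genes, 0 rose and 1 fell, Myoz2-203 of the sarcomere protein calsarcin-1, from 10.5, 11.3, 11.2 and 9.28 to 5.53, 4.70, 8.12 and 9.19 FPKM (-0.63 ± 0.20 (SE), limma adjusted p = 0.0427). The change was small, and the coding transcripts of Myoz2 stood at 410.0 to 443 FPKM in Control and 366 to 449.6 FPKM in LPS. Camk2d-213, of the calcium-dependent kinase CaMKII delta, was at 1.16, 1.91, 2.30 and 2.72 FPKM and 2.93, 7.01, 2.61 and 2.53 FPKM and did not pass (0.69 ± 0.31 (SE), limma adjusted p = 0.139). Smpx-207, of a small muscle protein outside that list, fell from 3.48, 4.09, 3.65 and 3.62 to 0.599, 0.813, 1.72 and 0.174 FPKM (-1.79 ± 0.30 (SE), limma adjusted p = 0.00177), and its share fell by 1.58 on the log2 scale (limma adjusted p = 0.0135). Myoz2-203 no longer passed without Control replicate 1, 2, 3 or 4, LPS replicate 1 or 2 or LPS+XJDHT replicate 2, 3 or 4 (limma adjusted p up to 0.107).

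Of 18 members of mitochondrial energy genes, Atp5j2-204 rose and Dlst-205, described above, fell, with a median change of -0.39, where 64 of the 102 genes tested by coding sum fell and 2 rose, beside 12.2% and 24.8% of all genes. With median ratio scaling 0 of the 18 rose and 2 fell. Slc25a3-202, outside that list and of the carrier that brings phosphate into the matrix, fell from 44.5, 26.2, 51.8 and 55.5 to 14.2, 16.7, 21.6 and 7.70 FPKM (-1.56 ± 0.30 (SE), limma adjusted p = 0.00373). The coding transcripts fell less, by 0.38 on the log2 scale (limma adjusted p = 0.0172), and the change of the share was -1.18 ± 0.38 (SE), limma adjusted p = 0.0971. Atp5j2-204, of a subunit of ATP synthase, overlapped between groups, at 0, 0, 0 and 0.725 FPKM in Control and 1.27, 9.60, 0.617 and 1.51 FPKM in LPS (2.01 ± 0.66 (SE), limma adjusted p = 0.0494). Pfkfb2-206, of the heart form of the enzyme that makes the glycolytic activator fructose 2,6-bisphosphate, overlapped between groups at 0.760, 0.208, 0.736 and 1.23 FPKM and 1.00, 0.917, 0.689 and 0.668 FPKM. Its share rose (2.47 ± 0.47 (SE), limma adjusted p = 0.0143) as the coding transcripts fell from 13.3, 13.1, 13.5 and 10.1 to 1.68, 0.897, 4.11 and 2.83 FPKM. Atp5j2-204 no longer passed without Control replicate 1, 2 or 3, LPS replicate 1, 2 or 4 or LPS+XJDHT replicate 1, 2 or 3 (limma adjusted p up to 0.107).

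Autophagy and proteasome genes held 6 tested members, of which 2 rose and 1 fell, with a median change of 0.68. Both that rose belong to Psma3, of an alpha subunit of the 20S core (0.93 ± 0.29 (SE), limma adjusted p = 0.0440 for Psma3-201 and 1.26 ± 0.38 (SE), limma adjusted p = 0.0358 for Psma3-206), whose coding transcripts rose as well (0.91 ± 0.13 (SE)). With median ratio scaling 0 of the 6 rose and 1 fell. The member that fell, Atg9a-207 of the scramblase that supplies membrane to autophagosomes, went from 1.74, 2.40, 1.41 and 2.99 FPKM to 0.298, 0.565, 0 and 0.578 FPKM (-1.64 ± 0.48 (SE), limma adjusted p = 0.0312). Psma3-201 no longer passed without Control replicate 1, 3 or 4, LPS replicate 1, 2 or 3 or LPS+XJDHT replicate 1, 2, 3 or 4 (limma adjusted p up to 0.107). Psma3-206 no longer passed without Control replicate 3 or LPS replicate 2, 3 or 4 (limma adjusted p up to 0.0923). Atg9a-207 no longer passed without Control replicate 1, 2 or 4 or LPS replicate 1 or 3 (limma adjusted p up to 0.0768).

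Other members had a lower share beside a higher host. Anapc5-202, of a scaffold subunit of the anaphase-promoting complex, was at 11.4, 11.4, 14.8 and 8.69 FPKM in Control and 3.52, 2.94, 2.74 and 5.38 FPKM in LPS, against coding transcripts at 16.2, 17.0, 14.0 and 19.2 and 27.9, 21.9, 26.3 and 21.6 FPKM, and its share fell (-2.10 ± 0.38 (SE), limma adjusted p = 0.0116). Phyhd1-208, of a dioxygenase of the phytanoyl-CoA type, was at 1.57, 1.96, 2.30 and 3.36 FPKM and 0.706, 0.0750, 1.44 and 1.26 FPKM, and its share fell (-2.21 ± 0.27 (SE), limma adjusted p = 0.00129). Cfb-203, of complement factor B, stood at 0, 0, 0 and 0 FPKM in Control and 1.74, 0, 1.28 and 1.34 FPKM in LPS, with coding transcripts at 2.02, 1.03, 1.12 and 1.76 and 102, 104, 114 and 133 FPKM. For Cfb-203 and Sh3bp5-203 the test called the share lower, but the median share without the pseudocount was not: it was 0% in Control and 1.07% in LPS for Cfb-203, and 1.37% and 1.75% for Sh3bp5-203. These 2 of the 19 calls rest on the pseudocount of 0.5 FPKM. Cfb-203 was at 0 FPKM in Control, beside coding sums of 1.03 to 2.02 FPKM there. Sh3bp5-203 itself had a mean of 0.399 FPKM over the 12 libraries, below the pseudocount. At transcript level, the rise of Cfb-203 no longer passed without Control replicate 1, 2, 3 or 4 or LPS replicate 1, 3 or 4 (limma adjusted p up to 0.0776). That rise was also lost in the fit of the compared groups alone and with limma-voom (adjusted p up to 0.154).

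The decay machinery itself was read from the coding sums of its genes. Of 27 tested genes of the pathway and the exon junction complex, 8 rose and 2 fell in LPS against Control, beside 37% of all genes tested; 7 and 4 did with median ratio scaling. Rbm8a, the Y14 subunit of the junction complex, rose from 8.68 ± 0.8287 to 14.1 ± 1.51 FPKM (SD, n = 4; 0.67 ± 0.10 (SE), limma adjusted p = 4.20e-04). Eif4a3, the helicase that anchors the complex on RNA, rose from 16.4 ± 1.14 to 22.9 ± 3.42 FPKM (0.46 ± 0.12 (SE), limma adjusted p = 0.0131), a call that was lost with median ratio scaling. Rnps1 rose as well (0.75 ± 0.14 (SE), limma adjusted p = 0.00174). The release factor Etf1 rose from 34.4 ± 1.00 to 54.1 ± 4.36 FPKM (0.65 ± 0.08 (SE), limma adjusted p = 1.18e-04), and its partner Gspt1 by 0.50 ± 0.11 (SE), limma adjusted p = 0.00363. Pabpc1, the cytoplasmic poly(A)-binding protein, rose by 1.01 ± 0.12 (SE), limma adjusted p = 7.09e-05. Smg9 and Ruvbl1, which act with the SMG1 kinase, completed the 8.

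Ncbp2, the small subunit of the nuclear cap-binding complex, fell from 12.3 ± 1.11 FPKM to 5.14 ± 0.317 FPKM (SD, n = 4; -1.18 ± 0.10 (SE), limma adjusted p = 7.43e-06), and Magohb fell by 0.71 on the log2 scale (limma adjusted p = 0.0231). Of the 30 genes on the list of decay and junction factors, 27 had a tested coding sum. Upf1 was not among those tested, so its level is not described here. Upf2, Smg5 and Smg6 did not pass. Upf2 stood at 4.48 ± 0.619 FPKM in Control and 4.88 ± 0.916 FPKM in LPS (0.11 ± 0.16 (SE), limma adjusted p = 0.648). Smg5 stood at 11.5 ± 1.81 and 9.41 ± 1.65 FPKM (-0.28 ± 0.15 (SE), limma adjusted p = 0.168) and passed as lower only with median ratio scaling. The difference was 0.49 ± 0.22 (SE), limma adjusted p = 0.101 for Smg6. Smg1 ranged from 0.657 to 9.64 FPKM within Control alone. The single member of a decay factor, Smg5-202, was at 0, 0, 0.674 and 0.0640 FPKM in Control and 0.525, 0.374, 0.639 and 0.641 FPKM in LPS (0.70 ± 0.30 (SE), limma adjusted p = 0.115).

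Genes long known as natural targets of the pathway were set beside the members. Of 12 with a tested coding sum, Asns (0.79 ± 0.22 (SE), limma adjusted p = 0.0138) and Sesn2 (0.54 ± 0.18 (SE), limma adjusted p = 0.0329) rose and 0 fell, and the stress factors Atf4 (0.28 ± 0.17 (SE), limma adjusted p = 0.229), Ddit3 (-0.44 ± 0.19 (SE), limma adjusted p = 0.0871) and Atf3 (-0.26 ± 0.44 (SE), limma adjusted p = 0.680) did not pass. Of that list the 7 snoRNA host genes, whose spliced RNA is not read into a long protein and is degraded after translation, have no coding sum and were fitted by the sum of all their annotated rows. All 7 rose in LPS, where 38.6% of 11509 genes passed and 26.7% passed as higher. Zfas1 went from 5.47, 5.97, 4.10 and 5.84 FPKM in Control to 24.3, 14.7, 9.28 and 11.7 FPKM in LPS (1.33 ± 0.25 (SE), limma adjusted p = 0.00169), and Snhg5 from 1.76, 1.76, 1.79 and 1.77 to 6.79, 8.39, 3.77 and 3.93 FPKM (1.38 ± 0.24 (SE), limma adjusted p = 0.00102). Gas5 went from 11.7 ± 3.41 to 22.3 ± 8.59 FPKM (SD, n = 4; 0.87 ± 0.29 (SE), limma adjusted p = 0.0342). With median ratio scaling 5 of the 7 passed, all as higher. This fit was added after the data were seen.

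Whether the decoction changed the response was read from LPS+XJDHT against LPS. Of 796 members 1 rose and 0 fell, beside 0.13% of all transcripts tested (0.00842% higher and 0.122% lower), and by unadjusted p below 0.05 limma gave 58 members (7.29%) beside 4.94% of all transcripts. The median change was -0.01 over members and 0.03 over all transcripts. The share of coding passed in 0 of 702 members, with 40 at an unadjusted p below 0.05 (5.70%, beside 4.64% of all transcripts), where 0.0224% of all transcripts tested passed (0.00746% higher and 0.0149% lower). None of the 665 host genes passed by coding sum, where 0.128% of all genes did, and 25 had an unadjusted p below 0.05 in limma (3.76%, beside 4.75% of all genes). Limma-voom on recovered fragments also called 1 member higher and 0 lower. Which member passed depended on the setting: a pseudocount of 1 FPKM gave 1 higher and 1 lower (Oas1g-203), the compared groups alone 0 and 1 (Commd2-201), and leaving out LPS+XJDHT replicate 4 gave 0 and 1 (Oas1g-203). Without LPS replicate 3 the 1 higher member was Kctd9-206, and without LPS+XJDHT replicate 1 it was Bmp1-205. As Bmp1-205 was near 0 in LPS, it was listed only with a higher level in LPS+XJDHT.

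The member that passed with all 12 libraries was Supt20-210, of a subunit of the SAGA transcription coactivator complex, at chr3:54693113-54728763. It stood at 2.40, 1.98, 2.19 and 2.31 FPKM in Control, 0.643, 0.549, 1.01 and 0.885 FPKM in LPS and 2.67, 2.53, 1.87 and 2.19 FPKM in LPS+XJDHT. The LPS libraries lay below every library of both other groups, which overlapped each other. The change was -1.11 ± 0.18 (SE), limma adjusted p = 0.00139 for LPS against Control and 1.15 ± 0.18 (SE), limma adjusted p = 0.0366 for LPS+XJDHT against LPS. The second call was lost in the fit of the compared groups alone and without any 1 library other than LPS+XJDHT replicate 3, with a limma adjusted p up to 0.250. Of the coding transcripts of Supt20 too little was listed for a test (0.0379 to 1.98 FPKM).

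The next members by p did not pass. Oas1g-203 reached 0.5 FPKM in the LPS libraries alone, so its passing the filter rests on that group, and the LPS+XJDHT libraries lay below them (values above; -1.15 ± 0.20 (SE), limma adjusted p = 0.0673), and the difference in its share was -1.80 ± 0.34 (SE), limma adjusted p = 0.363. Arid5a-205, of an RNA-binding protein that stabilises inflammatory messengers, stood at 2.54, 2.94, 1.17 and 1.52 FPKM in Control, 5.38, 5.02, 5.65 and 5.88 FPKM in LPS and 2.81, 2.24, 2.90 and 3.15 FPKM in LPS+XJDHT. It rose after LPS (1.29 ± 0.23 (SE), limma adjusted p = 0.00219), and the LPS+XJDHT libraries lay below the LPS libraries without passing (-0.87 ± 0.23 (SE), limma adjusted p = 0.553). Groups that do not overlap were found in 2.86% of all transcripts in this comparison.

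Of the 131 members that passed in LPS against Control, LPS and LPS+XJDHT did not overlap for 8. Over all transcripts tested, whether they passed or not, this held for 2.86%. The 131 were chosen with the same LPS libraries, so 8 and 2.86% cannot be compared directly. Against Control, LPS+XJDHT gave 94 members higher and 23 lower (14.7%, beside 21.2% of all transcripts tested, 15.8% higher and 5.39% lower), and with median ratio scaling 70 and 41. For the share it gave 24 higher and 20 lower (6.27%, beside 5.35%, 2.6% higher and 2.75% lower), with a pseudocount of 0.1 FPKM 27 and 9, and without Control replicate 1 it gave 7 and 14. The 20 include Cfb-203, whose median share without the pseudocount was 0% in Control and 1.08% in LPS+XJDHT. By coding sum 141 host genes rose and 69 fell of 665, beside 37.1% of all genes (26.4% higher and 10.7% lower), and with median ratio scaling 88 rose and 102 fell of 671. Both treated groups share the same Control libraries, so these counts are no second, separate test of the LPS effect. Il4ra-205 changed by 2.70 ± 0.23 (SE), limma adjusted p = 2.38e-05 in this comparison, Tinagl1-201 by 4.32 ± 0.52 (SE), limma adjusted p = 2.33e-04, Pnpla2-204 by 3.35 ± 0.42 (SE), limma adjusted p = 3.00e-04 and Ctsh-202 by -4.45 ± 0.59 (SE), limma adjusted p = 3.96e-04. Leaving out Control replicate 1 to 4 in turn gave 21, 23, 23 and 24 shares, and LPS+XJDHT replicate 1, 3 or 4 gave 20, 22 and 19.

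Kinds of early stop were also set side by side for LPS against Control, where 15.2% of all transcripts rose and 6.25% fell. Members with an extra exon gave 20 higher and 5 lower of 144 tested (median change 0.49), those with the stop inside coding sequence 44 and 12 of 397 (0.44), those with the stop in other outside sequence 20 and 4 of 147 (0.33), and those that end at the stop of a coding transcript 13 and 5 of 81 (0.27). For the share of coding, where 2.4% of all transcripts were higher and 2.58% lower, the counts were 5 higher and 5 lower of 126, 8 and 7 of 358, 2 and 4 of 130, and 4 and 2 of 73. Their median share of coding over the 12 libraries was 9.06%, 14.0%, 10.7% and 16.1% in the same order.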

How the data were processed

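The labels title the samples with separate numbers but do not say that each is a separate animal, so p-values measure the spread between these samples. The deposited tables hold 1 value per transcript. That these are FPKM, scaled by the authors to transcript length and library size, was read from the values. Only small products of value and transcript length were used for this, 8505 to 9190 per library. Of these, 98.6% to 98.8% per library were whole multiples (within 0.1) of 1 constant. The constant was picked to make that fraction highest, and the depths given above come from it. The submitters' processing notes name mm10 and limma; no aligner or quantifier is named in them. Transcript types, exons and stop codons came from GENCODE vM21 on GRCm38, and sequences from its transcripts; 37 Ensembl rows were not in it. Rows that the authors assembled were not used.

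Limma 3.58.1 with a mean trend (R 4.3.3) was fitted to log2(FPKM + 0.5) over all 12 libraries, for transcripts that reached 0.5 FPKM in 4 or more libraries. The share of coding is log2 of (transcript + 0.5) over (summed protein_coding transcripts of the gene, without itself, + 0.5), with that sum at least 1 FPKM in at least 4 libraries. Benjamini-Hochberg adjustment ran over all features tested, at 0.05. The fit was also run on simulated, normally distributed log2 values. These were not drawn to switch within a group as described above, so that run does not cover such members. Fold changes on this scale understate those of low transcripts. Alternatives were other pseudocounts (0.1 and 1) and filters, the compared groups alone, median ratio scaling, another denominator, each library left out, and, added after the data were seen, limma-voom on recovered fragments, gene-level settings and evenly chosen rows.

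The members and lists were chosen with earlier results of these data known. Members were named by rule: the 8 highest, the 10 largest changes each way that did not overlap between groups (predicted genes left out), up to 4 per list by adjusted p, and the 5 smallest p where none passed. Hnrnpdl-205 and Sh3bp5-203 were named after their values were seen. Tables were made with Python 3.11.15, pandas 2.3.3 and NumPy 2.4.6, and figures with matplotlib 3.10.9. The median member had 163 fragments per library.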

Additional observations from a re-analysis of the deposited data

Results flagged for a closer look

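In groups of 4 libraries, 26 of 168 had 1 library far from the other 3 relative to the group's range. Groups with the same value in all 4 libraries count among the 168 but could not be flagged. The cut flags about 1 in 20 groups of normally distributed values. FPKM near 0 are not such values, and 3 libraries at 0 with 1 above are always flagged. The count of 26 can therefore not be set against that rate. Lpl-203 stood apart in 1 library of every group, numbered 3 in each by accession order alone, at 722 FPKM in Control, 6.49 FPKM in LPS and 39.2 FPKM in LPS+XJDHT. In LPS+XJDHT replicate 3 the members' summed level was also low, at 11.7% of the coding level of the host genes. Col4a1-208 was at 0 FPKM in LPS+XJDHT replicate 1, and Chpt1-207 at 106 FPKM in Control replicate 4.

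Several isoforms were higher in 1 Control library than in the other 3. These were Tinagl1-201 (1.52 FPKM), Pnpla2-204 (0.440 FPKM), Luc7l2-204 (1.38 FPKM) and Smg5-202 (0.674 FPKM) in replicate 3, Ctla2b-204 (0.193 FPKM) and Ncstn-204 (0.470 FPKM) in replicate 1, and Atp5j2-204 (0.725 FPKM) in replicate 4. In LPS, the library that stood apart was replicate 3 for Dlst-205 (37.6 FPKM) and Kctd9-206 (5.51 FPKM), and replicate 1 for Ctsh-202 (3.60 FPKM) and Oas1g-203 (0.811 FPKM). It was replicate 2 for Bmp1-205 (0.351 FPKM), Camk2d-213 (7.01 FPKM) and Atp5j2-204 (9.60 FPKM), and replicate 4 for Dtnbp1-207 (0.530 FPKM). In LPS+XJDHT, replicate 2 stood apart for Prkch-204 (5.34 FPKM), Dlst-205 (54.3 FPKM), Ctsh-202 (0.413 FPKM) and Chd2-212 (2.76 FPKM), and replicate 4 for Dtnbp1-207 (10.9 FPKM). Replicate 2 of LPS+XJDHT is also the library with little Y-linked RNA; its part in these values was not tested.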

How the results depend on the processing

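No paired analysis was possible because the numbers that title the samples are not shared between groups. Without single libraries, members past the threshold at transcript level numbered 92 to 149 for LPS against Control, 0 to 1 for LPS+XJDHT against LPS and 84 to 125 for LPS+XJDHT against Control; shares numbered 17 to 42, 0 to 1 and 19 to 41, and host genes 170 to 206, 0 to 1 and 172 to 216. Single calls for LPS+XJDHT against LPS came without LPS replicate 3 (share), Control replicate 1 and LPS+XJDHT replicate 4 (host genes). The single member of LPS+XJDHT against LPS was Supt20-210 without LPS+XJDHT replicate 3, and another one in the other fits without 1 library that gave a call. Pseudocount 1 gave 2 members (1 higher, 1 lower) for LPS+XJDHT against LPS, and limma-voom 77 for LPS+XJDHT against Control. The summed level without single libraries was 9.48% to 10.7% of host coding in Control, 12.8% to 15.5% in LPS and 14.0% to 15.2% in LPS+XJDHT, and 11.2% in LPS+XJDHT without the 2 highest members. The mean of the median shares was 7.78% to 8.92%, 12.6% to 14.7% and 13.4% to 14.2%, and 10.4% in Control with evenly chosen rows. Rpsa-206, which did not pass, reversed with median ratio scaling (-0.017) and without Control replicate 2 (-0.12) or 4 (-1.24) or LPS replicate 2 (-0.93) or 4 (-0.87), with a highest value of 1.52 without LPS replicate 3, and Tnnc1-203 without Control replicate 1 (0.37) or 4 (0.26) or LPS replicate 4 (0.49), with a lowest value of -0.50 without LPS replicate 2; the cause was not tested. Of 97 called results of single members, 51 passed under every alternative run and 46 were lost under at least 1. Members near the 0.5 FPKM filter rest on few fragments, and a difference there may not be detectable.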
